A study of Arabidopsis thaliana with 97 samples.

Results

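The response of npr1-1 leaf discs to 30 min of flg22 was measured in 6 of the 96 libraries of the series: 3 replicates in 100 nM flg22 for 30 min and 3 replicates in water for 8 min, chosen by genotype, treatment and time in the sample titles. Sense tags were compared, that is, tags from the strand a gene is transcribed from. The series followed Col-0 and the mutants npr1-1, jar1-1 and ein2-5 through 7 times in flg22 and 1 time in water, with 3 replicates a group. npr1-1 is a line of the Col-0 background that carries a mutated NPR1 gene. All discs came from 5-week-old plants grown in short days, and had been infiltrated with water under vacuum and kept in water for about a day before treatment. As points of reference, npr1-1 discs after 15 min of flg22, Col-0 discs after 30 min of flg22 and Col-0 discs in water were used, 3 libraries each. Water was sampled at 8 min only, so the effect of flg22 and that of the longer time in the dish cannot be told apart.

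flg22 is a peptide from the flagellin of bacteria. The receptor kinase FLS2 binds it together with the co-receptor BAK1, and within minutes calcium enters the cell, RBOHD makes reactive oxygen and MAP kinases become active, which is the start of pattern-triggered immunity. NPR1 is a receptor and coactivator for salicylic acid that works with TGA factors, and npr1-1 plants fail to switch on salicylic acid output genes such as PR1 later in an infection.

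Transcripts were counted by EXPRSS, a Tag-seq method that reads a short tag near the 3′ end of an RNA, so that 1 transcript gives about 1 tag whatever its length. Levels are given as tags per 1000000 after scaling by the trimmed mean of M-values (TPM), and changes as log2 of 30 min flg22 over water ± standard error (SE). A gene was called at an adjusted p under 0.01 in edgeR's quasi-likelihood test, n = 3 libraries a group throughout. The 3 libraries of 30 min held 1289288 to 2333649 tags and the 3 of water 1182853 to 2040519, so that 3 tags in a group, the least taken as a measurable level, stood for 0.597 TPM at 30 min and 0.529 TPM in water. Plastid and mitochondrial loci took 17.2% to 20.8% of the tags at 30 min and 21.1% to 26.3% in water; their part in the results below was not tested beyond the scaling alternatives. The discs are bulk tissue, so fewer cells of a type and less RNA per cell cannot be told apart.

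Of 14569 sense genes tested, 3085 were called, or 21.2%, of which 1609 (11.0%) were higher after 30 min of flg22 and 1476 (10.1%) lower. The rises were the larger changes: 730 genes were called higher by more than 3 on the log2 scale and 243 were called lower by more than 3. The groups did not overlap in 43.8% of all genes tested, in 98.7% of those called higher and in 98.4% of those called lower. The median log2 change of all genes tested was -0.26. The balance of rises and falls moved with the scaling: 52.2% of calls were higher as reported, 42.4% when libraries were scaled by total tags (1386 higher, 1884 lower, median -0.47), and 61.7% when organelle loci were left out first (1764 higher, 1093 lower, median -0.11). The balance also moved with the design of the model, and the counts as reported do not use the replicate numbers. A block for the replicate number pairs each 30 min library with a water library. It gave 45.9% of calls higher (1838 higher, 2167 lower), so that falls were the majority. When the model held just these 6 libraries, 11780 genes were tested and 67.4% of calls were higher (1374 higher, 664 lower). The count of falls also depended on single libraries, with 865 called lower without 30 min replicate 3.

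NPR1 mRNA itself rose. It stood at 57.0, 54.6 and 76.4 TPM after 30 min of flg22, against 19.3, 15.8 and 22.8 TPM in water, with no overlap between the groups. The change was 1.68 ± 0.24 (adjusted p = 3.62e-08), and in Col-0 it was 1.67 ± 0.25. A tag at the 3′ end does not read the mutated base, so the level of NPR1 mRNA does not check the genotype label.

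The 3 largest rises and the largest fall, by fitted log2 change, are shown with the 250 bases before their RefSeq gene start. The bases are read 5′ to 3′ on the strand of the gene from the TAIR10.1 assembly. Capitals mark the W box, the DNA element WRKY transcription factors bind, written TTGACC or TTGACT and searched on both strands. They are shown because many of the genes with the largest rises below have this element in this window.

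AT2G31345 (chr2:13365801-13366050, minus strand): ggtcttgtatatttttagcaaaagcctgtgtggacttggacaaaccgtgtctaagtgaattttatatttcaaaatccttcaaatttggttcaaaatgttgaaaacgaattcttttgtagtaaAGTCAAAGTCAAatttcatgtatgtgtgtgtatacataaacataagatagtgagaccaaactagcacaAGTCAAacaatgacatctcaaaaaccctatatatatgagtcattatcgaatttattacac
AT4G22030 (chr4:11672099-11672348, plus strand): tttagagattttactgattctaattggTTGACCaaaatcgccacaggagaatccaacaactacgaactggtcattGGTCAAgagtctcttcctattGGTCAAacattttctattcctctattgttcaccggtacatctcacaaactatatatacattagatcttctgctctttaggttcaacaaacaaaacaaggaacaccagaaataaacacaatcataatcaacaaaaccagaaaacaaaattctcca
AT3G12910 (chr3:4109125-4109374, plus strand): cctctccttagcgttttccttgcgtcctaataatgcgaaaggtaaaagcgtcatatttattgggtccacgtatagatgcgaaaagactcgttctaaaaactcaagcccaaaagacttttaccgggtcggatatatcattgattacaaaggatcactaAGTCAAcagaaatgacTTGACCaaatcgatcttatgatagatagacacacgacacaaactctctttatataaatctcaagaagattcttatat
RVE2 (chr5:14753089-14753338, minus strand): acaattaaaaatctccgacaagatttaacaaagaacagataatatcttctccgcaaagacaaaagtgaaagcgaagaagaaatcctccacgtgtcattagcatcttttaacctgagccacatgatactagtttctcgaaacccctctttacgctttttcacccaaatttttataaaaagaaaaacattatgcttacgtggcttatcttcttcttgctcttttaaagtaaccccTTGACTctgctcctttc

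The W box was in 775 of 1606 promoters of genes called higher (48.3%), in 334 of 1469 of genes called lower (22.7%) and in 4267 of all 14372 promoters matched (29.7%). The motif CGCGTT, the core of an element known from rapid stress responses, was in 7.60% of promoters of genes called higher, in 1.91% of those called lower and in 3.08% of all. The GCC box AGCCGCC, which ERF factors bind, was in 0.934%, 0.613% and 0.745% of the same groups. A match is a string of letters and not a site shown to be bound.

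The 12 largest rises by fitted log2 change were genes that had almost no tags in water. In 8 of them no water library held a tag, and the other 4 held 1 to 3 tags over the 3 water libraries. The lower bounds given for those 8 are 1.57 times smaller without water replicate 1 and 1.67 times smaller without water replicate 3, since fewer tags then stand behind the floor. AT2G31345 is an uncharacterised protein by its RefSeq name. It had 385, 347 and 436 TPM after 30 min of flg22, against 0 TPM in each water library. This is at least 737-fold higher (adjusted p = 1.41e-21). AT4G22030, an F-box protein whose promoter above holds 3 W boxes, had 217, 183 and 288 TPM at 30 min, against 0 TPM in each water library, at least 433-fold higher (adjusted p = 3.39e-18). AT3G12910, a NAC transcription factor, had 172, 259 and 249.6 TPM at 30 min, against 0 TPM in each water library, at least 411-fold higher (adjusted p = 1.43e-19). All 3 were thus detected only in the flg22 libraries of this comparison.

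Of the other large rises, at least 3 encode precursors of small secreted peptides. AT4G28460 (prePIP1, a precursor of a peptide that amplifies immune signalling) had 593, 450.4 and 511 TPM at 30 min, against 0.965, 0 and 0.439 TPM in water, a ratio of 1006 with an exact 95% counting interval of 344 to 4880 (adjusted p = 3.87e-22). AT2G23270 (prePIP3, of the same family) had 138, 126 and 201 TPM at 30 min, against 0 TPM in each water library (at least 289.6-fold higher, adjusted p = 1.34e-15). AT5G05300 (IDL6, related to the abscission peptide IDA) had 275, 265 and 556 TPM at 30 min, against 0.483, 0 and 0 TPM in water (ratio 2012, interval 361 to 79506, adjusted p = 1.01e-19). In each of these peptide genes every 30 min library lay above every water library.

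The remaining large rises were of mixed kind. CYP82C3, a cytochrome P450 related to CYP82C2 of indole metabolism, had 153, 193 and 355 TPM at 30 min, against 0.483, 0 and 0 TPM in water (ratio 1261, interval 226 to 49869, adjusted p = 1.25e-18). AT4G04480, a second F-box protein, had 320.4, 333 and 513 TPM at 30 min, against 0.483, 0 and 0 TPM in water (ratio 2156, interval 387 to 85210, adjusted p = 2.44e-16). Both ratios exceed the lower bounds of the 3 largest rises, so the rank by fitted change is not an order of these ratios and bounds. AT5G64870, a membrane protein of the SPFH/Band 7 family to which flotillins belong, had 54.8, 60.7 and 64.1 TPM at 30 min, against 0 TPM in each water library (at least 112-fold higher). AT1G06135, AT4G18540 and AT1G06137, uncharacterised proteins by their RefSeq names, were at least 356-fold, 194-fold and 123-fold higher. A W box lay in the promoters of 10 of the 12 genes, all but AT5G05300 and AT5G64870.

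**Figure D1:**
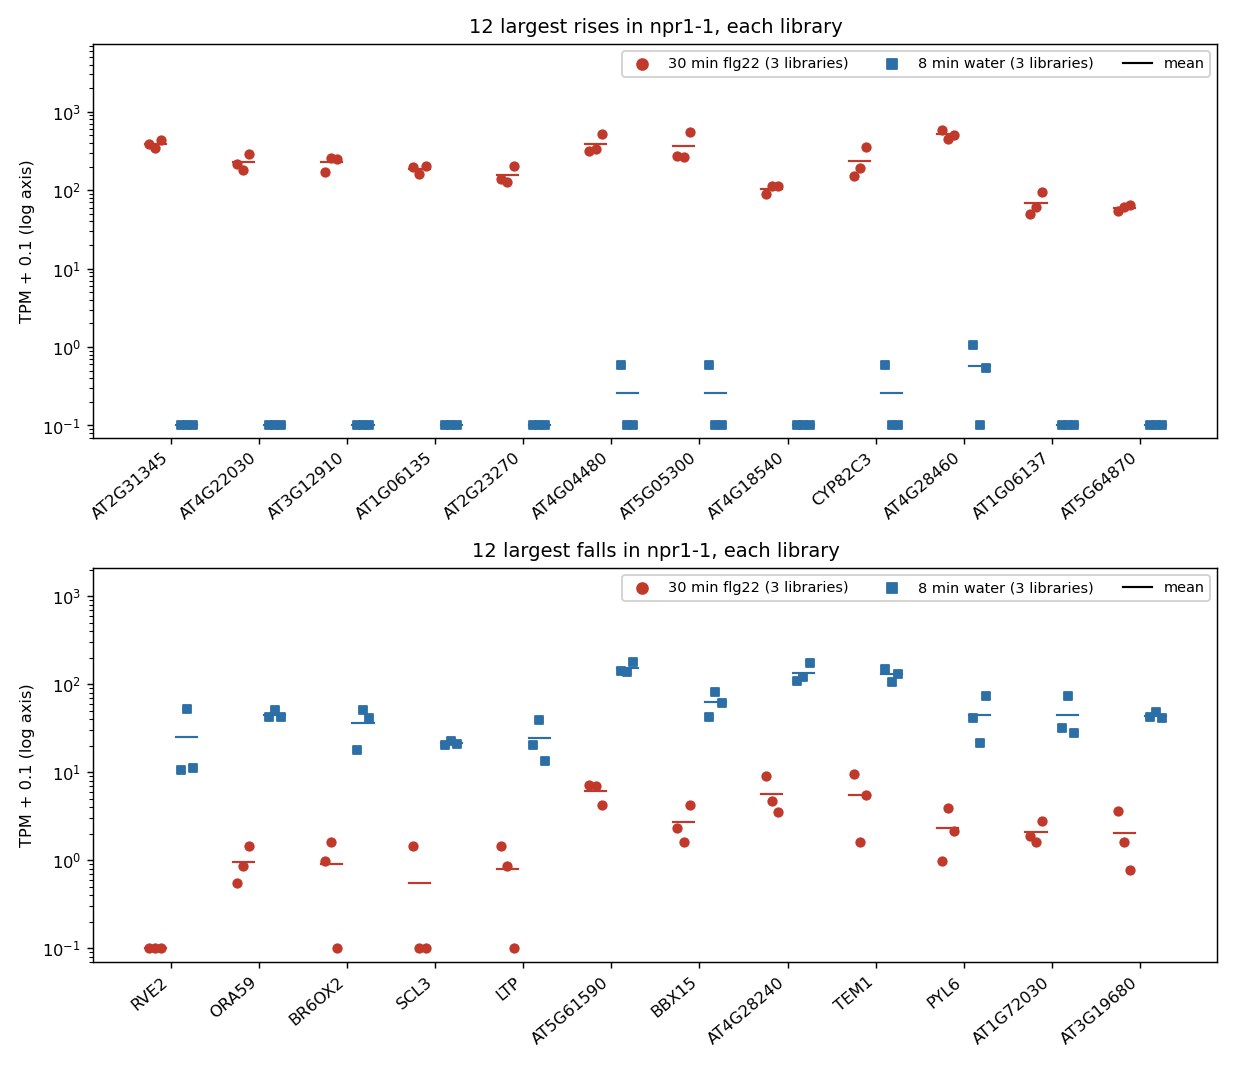
Level of the 12 genes with the largest rises (top) and the 12 with the largest falls (bottom) in each npr1-1 library, in TPM plus 0.1 on a log axis; red points are the 3 libraries of 30 min flg22, blue squares the 3 libraries of water, and lines are means. The genes were chosen so that the groups do not overlap. AT2G31345 lies between 347 and 436 TPM at 30 min and at 0 in water. RVE2 lies at 0 at 30 min and between 10.6 and 52.8 TPM in water.

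The 12 largest falls included transcription factors and genes of hormone pathways. RVE2, a MYB-like factor related to the clock genes CCA1 and LHY, had 0 TPM in each 30 min library, against 10.6, 52.8 and 11.0 TPM in water, at least 34.6-fold lower (adjusted p = 2.60e-07), or 18.1-fold without water replicate 2 and 19.1-fold without 30 min replicate 1. ORA59, an ERF factor of jasmonate and ethylene responses, had 0.446, 0.758 and 1.36 TPM at 30 min, against 42.0, 50.5 and 42.2 TPM in water (-5.64 ± 0.66, adjusted p = 8.56e-11). BR6OX2, the enzyme of the last step to brassinolide, had 0.891, 1.52 and 0 TPM at 30 min, against 17.9, 50.5 and 40.9 TPM in water (-5.35 ± 0.73, adjusted p = 2.10e-08). Water replicate 2 was the highest of the water libraries in RVE2, by far, and in ORA59 and BR6OX2 by less.

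SCL3, a GRAS protein of gibberellin signalling, had 1.34, 0 and 0 TPM at 30 min, against 20.3, 22.6 and 20.6 TPM in water, a ratio of 35.2 in favour of water with a counting interval of 11.7 to 173 (adjusted p = 1.33e-08). PYL6, an abscisic acid receptor, had 0.891, 3.79 and 2.05 TPM at 30 min, against 41.5, 21.1 and 72.9 TPM in water (-4.42 ± 0.66, adjusted p = 7.09e-08). TEM1, an AP2/B3 repressor of flowering, had 9.36, 1.52 and 5.46 TPM at 30 min, against 149, 107 and 130.5 TPM in water (-4.45 ± 0.39, adjusted p = 4.01e-16). The 2 groups lay apart in all of these, which the choice of the 12 genes required, although PYL6 varied several-fold among the water libraries.

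AT5G61590, an ERF factor, averaged 6.02 ± 1.67 TPM at 30 min and 153 ± 22.3 TPM in water (SD, n = 3 each). BBX15, a B-box protein, averaged 2.61 ± 1.33 TPM at 30 min and 62.1 ± 19.8 TPM in water. AT4G28240, of a wound-responsive family, averaged 5.62 ± 2.91 TPM at 30 min and 135 ± 33.8 TPM in water. With LTP (a lipid transfer protein), AT1G72030 (an acetyltransferase-like protein) and AT3G19680 (of unknown function), these genes had log2 changes of -4.78 to -4.31. The W box was in 3 of the 12 promoters, those of RVE2, BR6OX2 and AT3G19680. All 12 rises and all 12 falls kept their call under each of 16 alternative analyses.

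The counts for gene lists that follow are of members that passed a filter on low counts over all 96 libraries, and stand beside 11.0% called higher, 10.1% called lower and a median of -0.26 over all genes tested. Under the alternatives 98 of 896 such counts moved by more than 1.5 times, each of them a count of 8 or fewer genes, so that small counts of falls in particular are not firm. Of 28 receptor and receptor partner genes tested, 22 were called higher and none lower, with a median log2 change of 2.69. RBOHD, the NADPH oxidase of the oxidative burst, had 283, 464 and 390.0 TPM after 30 min of flg22, against 20.8, 25.6 and 12.7 TPM in water (4.28 ± 0.30, adjusted p = 1.93e-20). BAK1 had 118, 146 and 152 TPM at 30 min, against 45.4, 21.9 and 35.6 TPM in water (2.00 ± 0.27, adjusted p = 2.92e-09). BIK1, the cytoplasmic kinase released from the receptor complex, changed by 1.70 ± 0.22 (adjusted p = 9.76e-10). The groups were apart in all of these.

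FLS2, the receptor of flg22, had 66.0, 69.0 and 56.6 TPM at 30 min, against 37.2, 15.1 and 29.4 TPM in water. Every 30 min library was above every water library, but the change of 1.21 ± 0.42 did not pass the threshold (adjusted p = 0.0213, and 5.61e-04 to 0.226 over the alternatives, with a call in 5 of 16). Receptors of other patterns rose, among them EFR for the bacterial elongation factor Tu (1.43 ± 0.33, adjusted p = 3.43e-04), as did CERK1 and LYK5 for chitin and PEPR1 and PEPR2 for the plant's own Pep peptides. FRK1, a widely used flg22 marker, had 217, 225 and 604 TPM at 30 min, against 176, 36.2 and 118 TPM in water (1.66 ± 0.51, adjusted p = 0.00896), and lost its call in 7 of 16 alternatives, including those without 30 min replicate 3, water replicate 2 or water replicate 3.

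The list also holds genes known to dampen the receptor complex. CPK28, a calcium-dependent kinase that promotes the turnover of BIK1, had 271, 431 and 309 TPM at 30 min, against 12.1, 12.1 and 10.5 TPM in water (4.86 ± 0.32, adjusted p = 1.80e-21). The E3 ubiquitin ligases PUB23 and PUB24, which dampen immune signalling, changed by 4.22 ± 0.30 and 4.55 ± 0.30. PUB12, which marks FLS2 for degradation, and PUB22 were also called higher, whereas PUB13 was not called. Cysteine-rich receptor-like kinases, a large plant family, were called higher in 16 of 32 genes and lower in none (median 2.05). CRK31 had 40.1, 40.9 and 49.1 TPM at 30 min, against 0.483, 0 and 0 TPM in water.

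**Figure D2:**
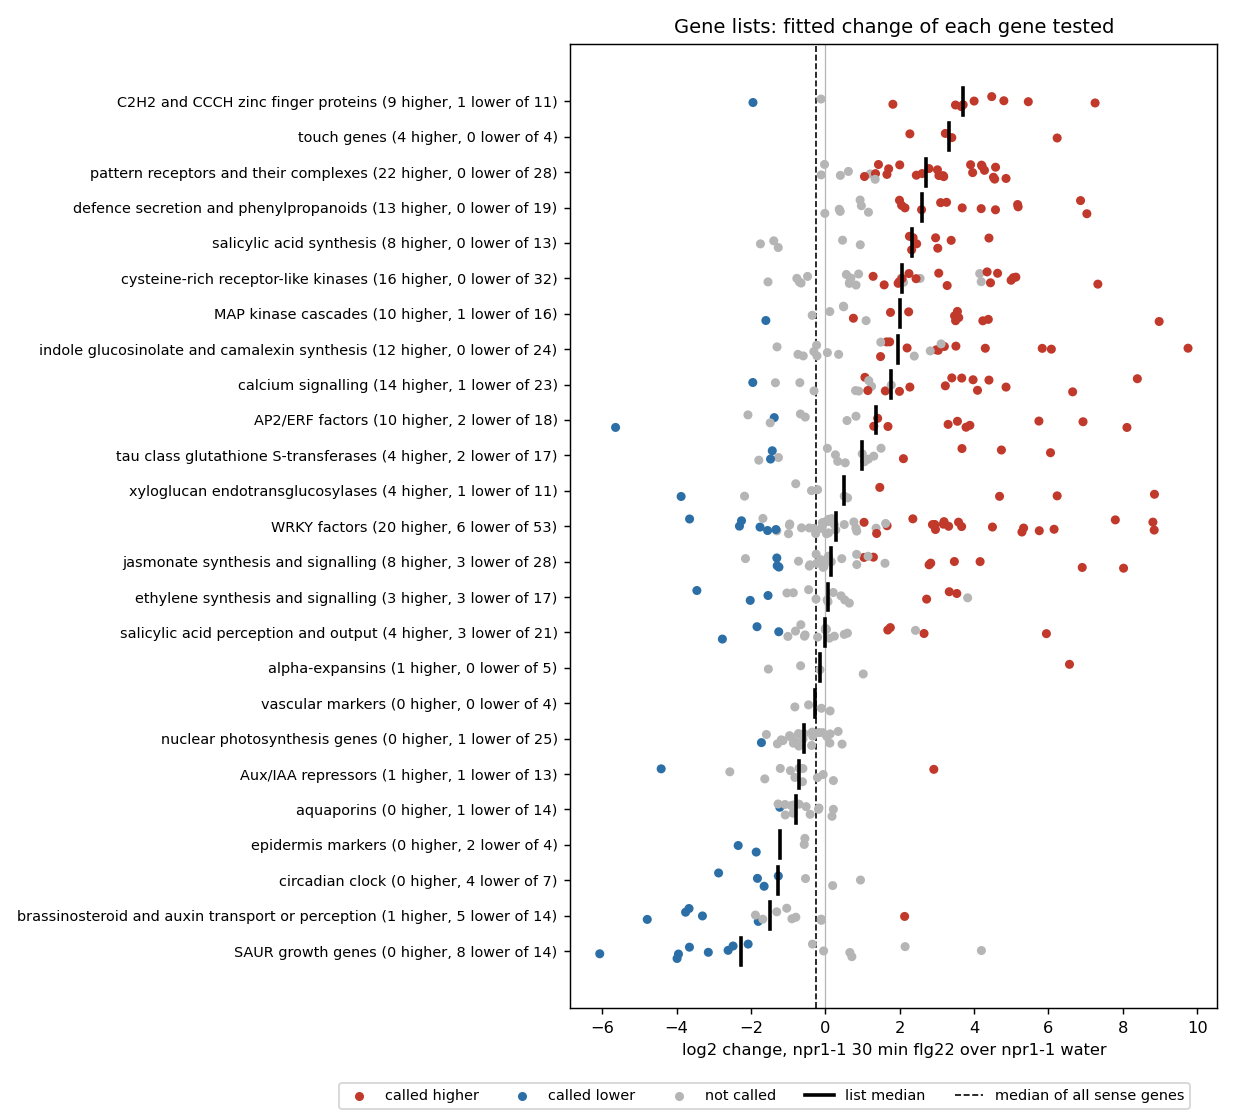
Fitted log2 change (npr1-1 30 min flg22 over npr1-1 water) of every gene tested in the gene lists with at least 4 genes tested; each point is a gene, red where called higher, blue where called lower and grey where not called, the thick bar is the list median and the dashed line the median of all sense genes (-0.26). Zinc finger proteins have the highest median (3.71) and SAUR growth genes the lowest (-2.28).

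Of 16 genes of the MAP kinase cascades, 10 were called higher and 1 lower, and the median change was 2.00. MPK11 had 261, 251 and 424 TPM at 30 min, against 0.965, 0 and 0.439 TPM in water, a ratio of 579 with a counting interval of 198 to 2810 (adjusted p = 2.86e-21). MPK3 had 822, 929 and 999 TPM at 30 min, against 81.1, 67.1 and 93.6 TPM in water (3.50 ± 0.30, adjusted p = 1.31e-16). MPK6, which acts beside MPK3 in this pathway, had 34.3, 24.3 and 51.1 TPM at 30 min, against 30.4, 19.6 and 27.7 TPM in water, and its groups overlapped (0.49 ± 0.23, adjusted p = 0.0964). The kinases above them, MEKK1, MAPKKK5, MKK4 and MKK5, were called higher, and so were the phosphatase AP2C1 and MKS1, a substrate of MPK4. MKK9 was the 1 member called lower, at 9.02 ± 2.16 TPM at 30 min and 27.9 ± 7.23 TPM in water (SD, n = 3 each). MPK4 changed by 0.75 ± 0.20 (adjusted p = 0.00228) and lost its call in 6 of 16 alternatives, including those without 30 min replicate 3 or water replicate 2.

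Calcium signalling genes were called higher in 14 of 23 and lower in 1 (median 1.77). CML37, a calmodulin-like protein, had 512, 370.1 and 289.8 TPM at 30 min, against 1.93, 1.51 and 0 TPM in water (8.39 ± 0.69, adjusted p = 3.38e-17). CPK32 had 389, 503 and 353 TPM at 30 min, against 27.5, 24.1 and 21.1 TPM in water (4.09 ± 0.35). CPK5 and CPK6, kinases that relay the immune calcium signal, were also called higher. The exception was the channel CNGC2, with 12, 22 and 6.82 TPM at 30 min, against 49.2, 48.2 and 58.9 TPM in water (-1.95 ± 0.42, adjusted p = 1.56e-04), a fall that was not called without replicate 3 of both groups. All 4 touch genes tested, a set first known as genes induced by touch, were called higher: XTH22, an enzyme that remodels cell wall xyloglucan, had 1185, 1092 and 1219.9 TPM at 30 min, against 29.9, 9.05 and 6.59 TPM in water (6.23 ± 0.48).

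Among transcription factors, WRKY genes were called in both directions: 20 of 53 higher and 6 lower, with a median of 0.28 (0.51 with genes without tags in a group set at their bound). WRKY33, the MAP kinase target that switches on camalexin synthesis, had 1527, 1642 and 2058 TPM at 30 min, against 47.3, 25.6 and 23.3 TPM in water (5.75 ± 0.38, adjusted p = 2.58e-21). WRKY30 had 323, 451 and 552 TPM at 30 min, against 0.965, 0 and 1.32 TPM in water (8.84 ± 0.68, adjusted p = 1.67e-18). WRKY22 and WRKY29, placed downstream of MAP kinases in early flg22 work, changed by 3.17 ± 0.32 and 3.66 ± 0.45. WRKY3, WRKY7, WRKY21, WRKY39, WRKY49 and WRKY60 were called lower. WRKY70, a factor of salicylic acid signalling, had 29.9, 15.2 and 10.2 TPM at 30 min, against 15.4, 18.8 and 6.59 TPM in water, and its groups overlapped (adjusted p = 0.492).

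Zinc finger proteins of the ZAT, AZF and SZF kind were called higher in 9 of 11 genes and lower in 1 (AZF3), with a median of 3.71. ZAT11 had 1225, 1048 and 1306 TPM at 30 min, against 12.6, 1.51 and 7.91 TPM in water (7.25 ± 0.48, adjusted p = 1.54e-21). SZF1, a CCCH protein, had 1192, 1284 and 955 TPM at 30 min, against 41.0, 19.6 and 16.7 TPM in water (5.46 ± 0.38, adjusted p = 2.87e-20). These are among the genes with the clearest separation of the groups.

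AP2/ERF factors, which act in ethylene, jasmonate and stress responses, were called higher in 10 of 18 and lower in 2 (median 1.35). ERF6, a substrate of MPK3 and MPK6, had 371, 281 and 318 TPM at 30 min, against 12.6, 0.754 and 3.51 TPM in water (5.74 ± 0.54, adjusted p = 7.67e-15). ERF104, an MPK6 substrate in the flg22 response, had 133, 79.6 and 53.2 TPM at 30 min, against 39.1, 23.4 and 20.2 TPM in water (1.68 ± 0.39, adjusted p = 3.39e-04), and its adjusted p was 0.0167 without 30 min replicate 1, the highest of the 3. ERF2 was called lower together with ORA59, and ERF1 was not called (adjusted p = 0.262).

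In the pathway that npr1-1 interrupts, genes for making salicylic acid and genes for responding to it differed in their counts. They differed in Col-0 as well, where 7 synthesis genes were called higher and none lower (median 1.73). Of the perception and output genes, 3 were called higher and 1 lower in Col-0 (fitted median -0.32). Of 13 synthesis genes tested in npr1-1, 8 were called higher and none lower (median 2.32). CBP60G, a calmodulin-binding activator of the synthesis gene ICS1, had 277, 243 and 365 TPM after 30 min of flg22, against 28.5, 3.02 and 8.79 TPM in water (4.40 ± 0.47, adjusted p = 1.09e-12). EDS1, a lipase-like protein upstream of salicylic acid, had 50.8, 73.6 and 78.4 TPM at 30 min, against 8.69, 6.03 and 4.39 TPM in water (3.38 ± 0.39, adjusted p = 1.86e-11). Its partners PAD4 and SAG101 changed by 3.02 ± 0.47 and 2.45 ± 0.27.

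ICS1 had 28.1, 29.6 and 59.3 TPM at 30 min, against 8.69, 8.29 and 5.71 TPM in water (2.36 ± 0.70, adjusted p = 0.00647), but lost its call in 8 of 16 alternatives, including those without 30 min replicate 3 and without any one of the water replicates. PBS3, which joins glutamate to isochorismate on the way to salicylic acid, changed by 2.96 ± 0.79 (adjusted p = 0.00222) and lost its call in 5, among them those without 30 min replicate 3, water replicate 2 or water replicate 3. EDS5, the transporter that carries isochorismate out of the plastid, changed by 2.32 ± 0.42 (adjusted p = 6.22e-06) and kept its call throughout.

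Of 21 perception and output genes tested, 4 were called higher and 3 lower. Their fitted median was 0.00, the value of a gene without tags, and was -0.21 without the 4 genes that had at most 3 tags in each group. The count of falls was 1 under 11 of 16 alternatives. NPR3, a relative of NPR1 that also binds salicylic acid, had 63.3, 47.8 and 73.0 TPM at 30 min, against 12.1, 6.78 and 9.66 TPM in water (2.65 ± 0.29, adjusted p = 2.25e-12). GRX480, a glutaredoxin that binds TGA factors, had 22.7, 15.2 and 10.9 TPM at 30 min, against 0.483, 0 and 0 TPM in water, a ratio of 98.2 with a counting interval of 17.2 to 3921 (adjusted p = 1.93e-08). TGA6, a bZIP partner of NPR1, had 1.34, 1.52 and 1.36 TPM at 30 min, against 9.65, 12.1 and 8.79 TPM in water (-2.77 ± 0.43, adjusted p = 1.61e-07). NIMIN-2, NPR4 and TGA1 were called with adjusted p-values of 0.0055, 0.00693 and 0.00817, and each lost its call in at least 8 alternatives, among them the one without replicate 3 of both groups.

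PR1, the standard output gene of NPR1, had no tag in any of the 6 libraries, which allows up to 0.597 TPM at 30 min and 0.529 TPM in water. PR2 had 1.34, 0 and 0 TPM at 30 min, against 0.965, 0 and 0 TPM in water. PR5 had 4.01, 0.758 and 0.682 TPM at 30 min, against 7.24, 2.26 and 1.32 TPM in water, with overlapping groups (adjusted p = 0.552). It was lower at 30 min in each of the 3 replicate numbers, but was not called under any of the 14 alternatives that tested it, the replicate block included (adjusted p = 0.212 to 0.899). For PR1 and PR2 no difference was detectable at this depth.

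Jasmonate genes were called higher in 8 of 28 and lower in 3 (median 0.14), and 6 of the 8 that rose are enzymes of its synthesis. LOX4, a 13-lipoxygenase, had 915, 1151 and 1019 TPM at 30 min, against 8.69, 2.26 and 0.439 TPM in water (8.02 ± 0.47, adjusted p = 1.11e-23). LOX3 had 173, 184 and 158 TPM at 30 min, against 10.1, 9.05 and 9.23 TPM in water (4.16 ± 0.33, adjusted p = 6.93e-18). AOC3, OPR3, OPCL1 and ACX1, which act after them, were also called higher. The repressors JAZ1 and JAZ5 were called higher and JAZ6 and JAZ9 lower, the receptor gene COI1 was called lower, and MYC2, the main activator, was not called (adjusted p = 0.0983).

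In the ethylene list 3 of 17 genes were called higher, 3 lower, and the median was 0.07. All 3 that rose make the precursor ACC: ACS6, a target of MPK3 and MPK6, had 159, 168 and 181 TPM at 30 min, against 21.2, 9.80 and 11.9 TPM in water (3.54 ± 0.34, adjusted p = 2.18e-14), and ACS2 and ACS7 changed by 3.33 ± 0.51 and 2.72 ± 0.42. The 3 that fell are a receptor, ETR2, and the F-box proteins EBF1 and EBF2, which degrade EIN3. EBF2 had 10.7, 9.86 and 19.8 TPM at 30 min, against 148, 136 and 158 TPM in water (-3.46 ± 0.34, adjusted p = 8.24e-14). EIN3 itself had 231, 143 and 176 TPM at 30 min, against 173, 176 and 128 TPM in water (adjusted p = 0.638).

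Of 24 indole glucosinolate and camalexin genes, 12 were called higher and none lower (median 1.96). CYP81F2, which hydroxylates indole glucosinolates for defence, had 664, 829.6 and 1380.1 TPM at 30 min, against 32.3, 1.51 and 14.5 TPM in water (5.83 ± 0.57, adjusted p = 5.15e-14). PEN2, the myrosinase that activates them, had 1070.1, 1402 and 1797 TPM at 30 min, against 196, 149 and 175 TPM in water (3.04 ± 0.25, adjusted p = 1.30e-17). IGMT2, a methyltransferase of the same branch, changed by 6.08 ± 0.56, although tags it may share with its close copy IGMT1 were split between them. The core enzymes CYP79B2, CYP79B3 and CYP83B1 were not called, and PAD3, the last enzyme of camalexin synthesis, had 4.90, 5.31 and 19.1 TPM at 30 min, against 4.83, 0 and 0 TPM in water (adjusted p = 0.0793).

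Of 19 genes of defence secretion and phenylpropanoids, 13 were called higher and none lower (median 2.59). SNAP33, a SNARE of secretion at the plasma membrane, had 741, 845 and 1113 TPM at 30 min, against 52.1, 42.2 and 52.7 TPM in water (4.19 ± 0.25, adjusted p = 5.09e-23). Its partner syntaxin SYP122 had 1188, 877 and 1468 TPM at 30 min, against 54.6, 18.1 and 23.3 TPM in water (5.18 ± 0.40, adjusted p = 1.55e-18). MLO6, of a family that powdery mildew needs for entry, changed by 6.86 ± 0.48, and NHL10, another flg22 marker, by 7.03 ± 0.56. The phenylpropanoid enzymes PAL1, C4H, 4CL1 and 4CL2 were not called, so the called rises in this list were in secretion and membrane genes and in PAL2. The fitted change was positive in 18 of the 19 genes. Tau class glutathione S-transferases were called higher in 4 of 17 genes and lower in 2, and GSTU11 averaged 117 ± 35.4 TPM at 30 min and 4.03 ± 4.15 TPM in water (SD, n = 3 each).

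SAUR genes, small auxin-induced genes of cell expansion, were called lower in 8 of 14 and higher in none (median -2.28, against -0.26 over all genes). SAUR36 had 3.12, 3.03 and 6.82 TPM after 30 min of flg22, against 66.1, 59.6 and 74.7 TPM in water (-3.95 ± 0.38, adjusted p = 1.66e-14). SAUR14 had 0, 0 and 0.682 TPM at 30 min, against 15.4, 21.9 and 22 TPM in water, a ratio of 98.4 in favour of water with a counting interval of 17.3 to 3920 (adjusted p = 2.20e-08). Of the SAUR genes in the files, 26 had no tag in any of these 6 libraries.

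Of 14 genes for brassinosteroids and for auxin transport or perception, 5 were called lower and 1 higher (median -1.50). The auxin receptor gene AFB3 had 3.12, 0.758 and 0.682 TPM at 30 min, against 22.2, 23.4 and 23.7 TPM in water (-3.67 ± 0.43, adjusted p = 4.49e-11). Its relative TIR1 had 2.23, 0.758 and 0 TPM at 30 min, against 12.1, 8.29 and 15.8 TPM in water (-3.31 ± 0.60, adjusted p = 6.85e-06). PIN4, an auxin exporter, DWF4, an early enzyme of brassinosteroid synthesis, and the factor BES1 also fell, whereas the brassinosteroid receptor BRL3 rose by 2.13 ± 0.30. Of 13 Aux/IAA repressors, IAA4 was called lower and IAA10 higher. Of 11 xyloglucan endotransglucosylases, 4 were called higher and 1 lower, and XTH18 had 426, 419 and 509 TPM at 30 min, against 1.45, 0.754 and 0.439 TPM in water (8.85 ± 0.58).

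In the clock list 4 of 7 genes were called lower and none higher (median -1.27). These were PRR5, LUX, ELF4 and ELF3, which act in the evening. ELF4 had 15.6, 30.3 and 30.0 TPM at 30 min, against 83.0, 85.2 and 98.0 TPM in water (-1.83 ± 0.39, adjusted p = 1.38e-04). ELF3 lost its call in 11 of 16 alternatives, including those without 30 min replicate 2 or 3 or water replicate 1 or 2. Nuclear photosynthesis genes were called lower in 1 of 25, RBCS1B (-1.72 ± 0.47, adjusted p = 0.00273), a call lost in 6 of 16 alternatives, among them those without 30 min replicate 1 or 3 or water replicate 2. Their summed level was 18291 to 24445 TPM at 30 min and 29242 to 39797 TPM in water, with no overlap, and their median change was -0.57.

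Few markers of single cell types had enough tags to be tested. Of 4 epidermis markers, CER6 and PDF2 were called lower, with a summed level for the list of 23.9 to 47.8 TPM at 30 min and 68.1 to 157 TPM in water, and their part in the other results was not tested. CER6, a wax enzyme, had 19.6, 9.10 and 5.46 TPM at 30 min, against 58.4, 95.7 and 29.9 TPM in water, and was not called without replicate 2 of both groups. None of the 4 vascular, 2 guard cell, 2 myrosin cell and 2 root markers was called. Of 14 aquaporins only TIP1;1 was called, lower, at 53.0 ± 17.1 TPM at 30 min and 125 ± 37.1 TPM in water (SD, n = 3 each). It lost this call in 8 of 16 alternatives, among them those without 30 min replicate 2 or 3 or water replicate 2.

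The same comparison in Col-0, in libraries that share none with those of npr1-1, called 2730 genes (18.7%), 1481 higher (10.2%) and 1249 lower (8.57%). Both genotypes called 1378 genes higher, which is 85.6% of the npr1-1 and 93.0% of the Col-0 rises, and 918 lower, which is 62.2% of the npr1-1 and 73.5% of the Col-0 falls. No gene was called in opposite directions. The list medians were 2.69 in npr1-1 and 2.32 in Col-0 for receptors, 2.32 in npr1-1 and 1.73 in Col-0 for salicylic acid synthesis, and -2.28 in npr1-1 and -2.08 in Col-0 for SAUR genes. FRK1 changed by 1.66 ± 0.51 in npr1-1 and by 0.86 ± 0.51 in Col-0, and CBP60G by 4.40 ± 0.47 in npr1-1 and 4.62 ± 0.48 in Col-0.

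**Figure D3:**
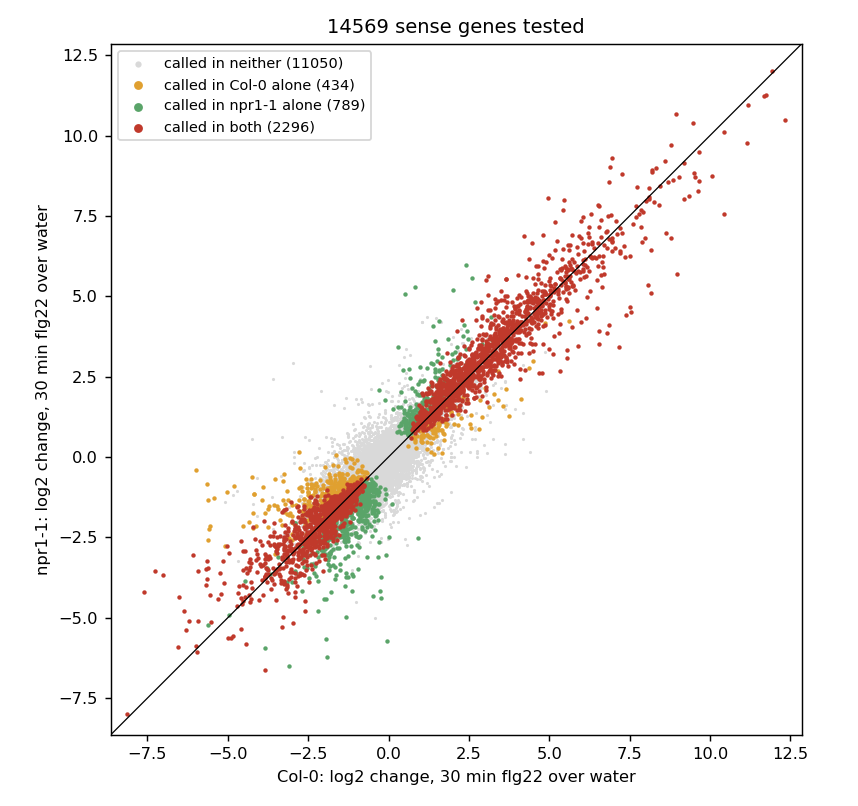
Log2 change after 30 min of flg22 over water in npr1-1 (vertical) and Col-0 (horizontal) for each of 14569 sense genes; colours give the genotype in which a gene was called and the line marks equal change. Of these, 2296 were called in both genotypes, 789 in npr1-1 alone, 434 in Col-0 alone and 11050 in neither.

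Whether a gene changed by a different amount in the 2 genotypes was tested by the interaction of genotype and treatment. In edgeR 226 genes had an unadjusted p under 0.05, a smaller share than the 0.05 such a threshold passes when no gene differs. No gene passed at an adjusted p under 0.01 in edgeR (0.0% of 14569), and none passed in DESeq2. The 789 genes called in npr1-1 alone are therefore not shown to respond differently, nor are they shown to respond equally. Among the genes of the lists, TGA6 fell by 2.77 ± 0.43 on the log2 scale in npr1-1 and by 1.16 ± 0.44 in Col-0. Its unadjusted interaction p was 0.041, so TGA6 is not shown to respond differently either. The receptor, calcium, WRKY and cysteine-rich kinase lists also held 1 gene each with an unadjusted interaction p under 0.05. Genotype and sequencing lane cannot be told apart, since each lane held 1 genotype by the deposited list of lanes.

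Levels after 30 min of flg22 differed between npr1-1 and Col-0 in 7 genes (0.048% of those tested), 3 higher (0.0206%) and 4 lower (0.0275%) in npr1-1. The 3 that were higher in npr1-1 are small nucleolar RNAs, which guide the modification of ribosomal RNA. AT3G01313 had 151, 186 and 182 TPM in npr1-1, against 0.876, 7.74 and 2.33 TPM in Col-0 (5.50 ± 0.95, adjusted p = 3.79e-04). AT3G27865 had 37.0, 24.3 and 25.2 TPM in npr1-1, against 1.75, 1.55 and 1.55 TPM in Col-0 (4.09 ± 0.69, adjusted p = 2.47e-04). AT1G03743 had 53.5, 45.5 and 47.0 TPM in npr1-1, against 5.26, 3.87 and 7.77 TPM in Col-0 (3.09 ± 0.50, adjusted p = 1.93e-04). Their order was the same in water, with 32.4 to 309 TPM of AT3G01313 in npr1-1 and 3.80 to 9.04 TPM in Col-0.

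The other 4 were lower in npr1-1. MRD1, named for its fall in a methionine-accumulating mutant, had 0 TPM in each npr1-1 library at 30 min, against 7.89, 10.8 and 9.33 TPM in Col-0, at least 15.8-fold lower (adjusted p = 2.35e-04), or 8.74-fold without npr1-1 replicate 1. BAT1, an amino acid transporter, had 0.446, 0.758 and 0 TPM in npr1-1, against 17.5, 11.6 and 9.33 TPM in Col-0, a ratio of 31.8 in favour of Col-0 with a counting interval of 8.32 to 270.1 (adjusted p = 3.85e-05). AT1G63980, a G-patch protein, had 0.891, 5.31 and 4.09 TPM in npr1-1, against 24.5, 51.1 and 38.9 TPM in Col-0 (-3.58 ± 0.52, adjusted p = 3.49e-05). AT1G27020 averaged 174 ± 40.3 TPM in npr1-1 and 746 ± 107 TPM in Col-0 (-2.10 ± 0.35, SD and n = 3 each, adjusted p = 2.47e-04). In water, too, all 4 were lower in npr1-1, with no overlap. MRD1 had 4.34, 4.52 and 0.439 TPM there, against 19.5, 22.5 and 29.4 TPM in Col-0 water. BAT1 had 3.38, 1.51 and 0.439 TPM in npr1-1 water, against 16.3, 12.2 and 15.1 TPM in Col-0 water. AT1G63980 had 5.31, 15.8 and 7.47 TPM in npr1-1 water, against 28.8, 46.4 and 37.7 TPM in Col-0 water. AT1G27020 averaged 277 TPM in npr1-1 water and 1073 TPM in Col-0 water. The differences in water were not tested. Without replicate 1 of both genotypes none of the 7 was called, without replicate 2 the count was 2 and without replicate 3 it was 3. No gene of the lists above was among the 7.

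From 15 to 30 min of flg22 in npr1-1, 1142 genes changed (7.84%), 688 higher (4.72%) and 454 lower (3.12%) at 30 min. These counts rest on the same 30 min libraries as the comparison with water. With a block for the replicate number, which within a genotype is also the sequencing lane, 1714 genes were called, 958 higher and 756 lower, and with total tag scaling 417 were higher and 598 lower (41.1% of calls higher, against 60.2% as reported), with the median of all genes at -0.28 in place of -0.03. Without replicate 1, 2 or 3 of both groups 770, 631 and 583 genes were called.

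Of the 4 largest falls at this step, 3 were heat shock genes that were high at 15 min. HSFA2, a heat shock factor, had 0, 0.758 and 1.36 TPM at 30 min, against 42.1, 14.0 and 29.5 TPM at 15 min (adjusted p = 3.73e-07). Fes1A, which protects HSP70 from degradation, had 23.6, 4.55 and 22.5 TPM at 30 min, against 518, 149 and 424 TPM at 15 min (-4.39 ± 0.60, adjusted p = 6.54e-08). In water their levels were 1.93, 0 and 1.32 TPM for HSFA2 and 9.65, 16.6 and 13.6 TPM for Fes1A, and the 30 min and water libraries overlapped in both genes. AT1G59860, a small heat shock protein, behaved likewise, with 1.55 ± 0.212 TPM at 30 min and 36.4 ± 15.9 TPM at 15 min (SD, n = 3 each), a change not called without replicate 1. The 30 min level was a low point between higher means. At 45 min HSFA2 averaged 14.4 TPM, Fes1A 145 TPM and AT1G59860 13.1 TPM. At 60 min the means were 22.5 TPM for HSFA2, 60.9 TPM for Fes1A and 9.14 TPM for AT1G59860. These later rises were not tested.

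SAUR72 had 1.34, 0.758 and 2.73 TPM at 30 min, against 54.3, 46.0 and 23.0 TPM at 15 min (-4.60 ± 0.60, adjusted p = 2.48e-08), and in water it had 15.4, 1.51 and 9.66 TPM. The largest rises of the step were uneven among replicates. MAPKKK15, a MAP kinase kinase kinase, had 7.13, 9.86 and 75.0 TPM at 30 min, against 0 TPM in each 15 min library, at least 46.9-fold higher (adjusted p = 2.60e-08). This bound was 13.8 without 30 min replicate 3, 75.0 without 30 min replicate 1, and 29.6 and 28.5 without 15 min replicates 1 and 3. AT1G14550, a peroxidase, had 18.3, 15.9 and 104 TPM at 30 min, against 2.13, 0.822 and 1.00 TPM at 15 min, and its call (adjusted p = 7.24e-04) was lost without replicate 3. PSD2, a phosphatidylserine decarboxylase, had 7.13, 23.5 and 47.7 TPM at 30 min, against 1.60, 0 and 0.500 TPM at 15 min. In all 3 genes 30 min replicate 3 was the highest library. AT4G04480 was more even, with 320.4, 333 and 513 TPM at 30 min, against 2.66, 5.75 and 21.5 TPM at 15 min (5.22 ± 0.55, adjusted p = 3.54e-10).

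Over the whole time series in npr1-1, 30 min was the highest of the 7 flg22 times for 406 of the 1609 genes called higher at 30 min, by the mean of 3 libraries. For 97 of them it was 15 min, for 525 it was 45 min, for 390 it was 60 min, for 89 it was 120 min and for 102 it was 180 min. Of the 1476 genes called lower, the lowest mean was at 15 min in 17, at 30 min in 305, at 45 min in 335, at 60 min in 307, at 120 min in 269 and at 180 min in 243. These are descriptions with no test.

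**Figure D4:**
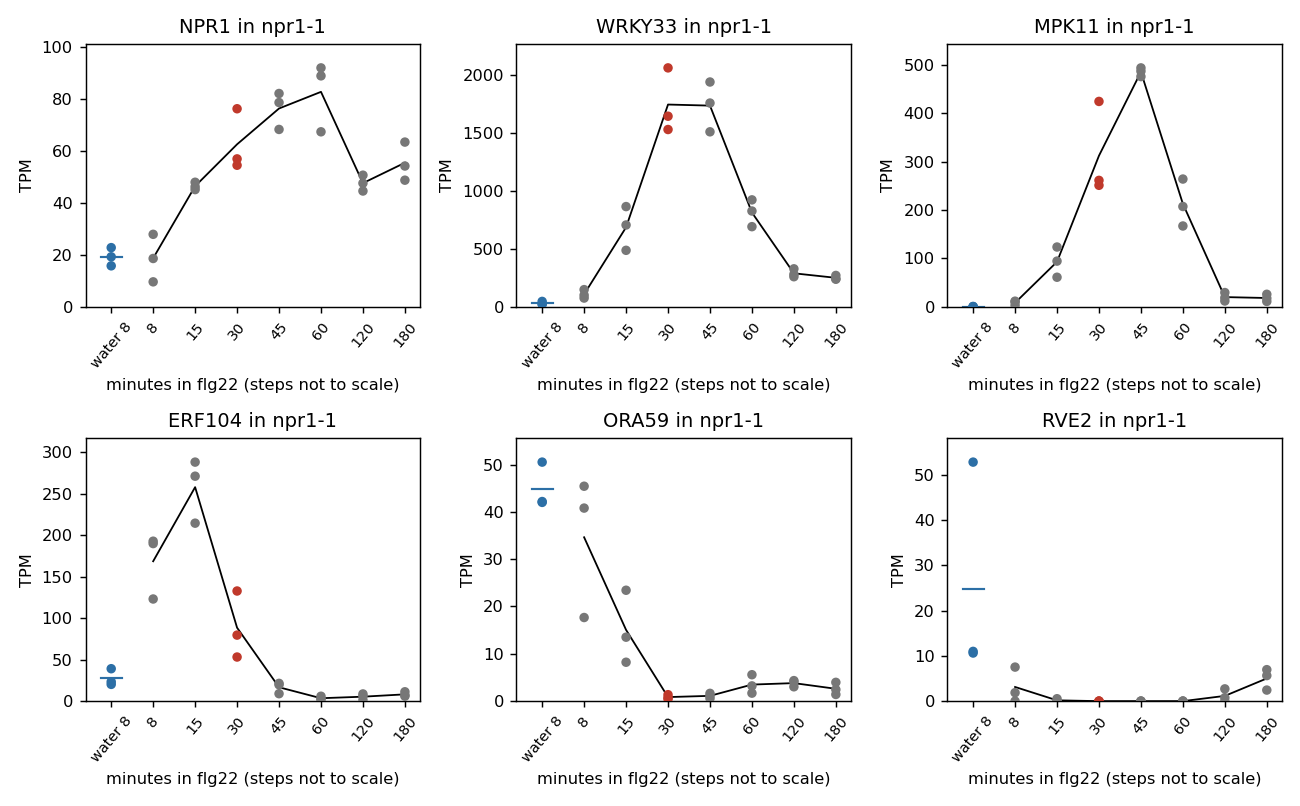
Level in TPM of NPR1, WRKY33, MPK11, ERF104, ORA59 and RVE2 in each npr1-1 library in water for 8 min (blue) and after 8, 15, 30 (red), 45, 60, 120 and 180 min of flg22, with lines through the means of the flg22 times; the steps of the horizontal axis are not to scale. ERF104 is highest at 15 min (215 to 288 TPM), MPK11 at 45 min (475 to 493 TPM) and NPR1 at 60 min by its mean, whereas RVE2 lies below its water level at each flg22 time and ORA59 from 15 min on, its 8 min libraries overlapping with water (17.7 to 45.4 TPM).

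The plot of 6 genes over time shows these profiles in single libraries. ERF104 had 215, 271 and 288 TPM at 15 min and 21.4, 19.7 and 8.97 TPM at 45 min, so that 30 min lay on its decline. MPK11 had 61.2, 94.5 and 124 TPM at 15 min and 486, 475 and 493 TPM at 45 min. WRKY33 had 1508, 1755 and 1936 TPM at 45 min, which overlaps with its levels at 30 min, and 238 to 271 TPM at 180 min, above its water level of 23.3 to 47.3 TPM. ORA59 had 23.4, 8.22 and 13.5 TPM at 15 min, between its levels in water and at 30 min. RVE2 had 2.44, 6.95 and 5.64 TPM at 180 min, against 10.6, 52.8 and 11.0 TPM in water.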

How the data were processed

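Tags of 96 libraries were used, of which 6 are the libraries compared here. The deposited files hold expected counts of tags per locus, which the authors made by aligning tags to the TAIR10 genome with Bowtie 0.12.8 and splitting a tag that matched several loci equally among them, so counts of near-identical genes are uncertain. Antisense tags were counted apart, under names beginning with R_. Expected counts were rounded to whole tags, which changed totals by at most 0.0506%. A locus without tags was read as 0. No normalisation had been applied.

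Counts were tested in R 4.3.3 with edgeR 4.0.16 (glmQLFit, glmQLFTest), with filterByExpr, TMM scaling and 1 term for each of 32 groups. Tests were two-sided, and the Benjamini-Hochberg adjustment was made across 14569 sense genes and 2247 antisense transcripts at once. The SE was taken as the log2 change divided by the root of the F statistic. A group without tags was given a floor of 3 tags, and a group with 1 to 3 tags an exact 95% counting interval. Tags carry no molecular identifiers, so floors and intervals cover counting error only. The method was tested on simulated data of the 30 min comparison with water. Of 67 features changed 2-fold, 3 were called (4.48%). Of 67 changed 4-fold, 40 were called (59.7%), and of 66 changed 8-fold, 51 (77.3%). Of 16616 unchanged features, out of 16816 simulated, 4 were called. In the real comparison 21.2% of sense genes were called, so far fewer features changed in the simulation. The adjusted p depends on that share, so these recoveries hold for the simulated setting and do not measure those of the real comparison. A feature that was not called may still have changed.

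Groups were read from the sample titles. The paper calls the replicates biological, whereas the labels give only replicate numbers, so p-values measure the spread among samples of different number. That spread was estimated in a single fit of all 96 libraries and 32 groups, and not from the 6 libraries compared alone. By a deposited list of the libraries sequenced together, each lane held the 8 libraries of 1 genotype and 1 replicate number, so within npr1-1 a replicate number is also a lane, and lane cannot be told apart from any other batch that shares the number. Samples of 30 min and water with 1 number deviated together over 5000 features, with correlations of 0.176, 0.373 and 0.380, so the numbers pair them. Between npr1-1 and Col-0 the correlations were 0.258, -0.028 and -0.117, and the numbers do not.

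Named genes are NPR1, the 12 largest rises and 12 largest falls by fitted log2 change among called genes with at least 20 TPM in the higher group and groups that do not overlap, the members of gene lists with the smallest adjusted p and those that define a pathway, and, in the other comparisons, every called gene or the 4 largest in each direction. Members, lists and comparisons were chosen with earlier results of these data known. Of 327 list entries, 8 whose name in the reference did not match were left out. Gene names, products and promoters are from RefSeq (TAIR10.1), and the files give no coordinates. Promoters matched for 14372 genes. The alternatives were total tag scaling, organelle loci left out, no filter on low counts, a mean of at least 5 TPM, a replicate block, only the groups compared in the fit, each replicate left out and DESeq2 1.42.0.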

Additional observations from a re-analysis of the deposited data

Results flagged for a closer look

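Tags on the antisense strand lie outside the comparison of sense genes and also differed between 30 min of flg22 and water in npr1-1. Of 2247 antisense transcripts tested, 408 were called higher at 30 min and 42 lower, in edgeR at an adjusted p under 0.01. They stand out because they are a signal in data that the comparison above does not use. Their share of the antisense transcripts tested was 20.0%, beside 21.2% for sense genes. Of the antisense calls 90.7% were higher, beside 52.2% of the sense calls. In Col-0 389 antisense transcripts were called higher and 47 lower (19.4%). For 364 of the 408 the sense gene of the same locus was also called higher, for 29 it was not called and for 15 it was not tested. For 22 of the 42 the sense gene was also called lower, for 15 it was not called, for 4 it was not tested, and for 1 it was called higher. Over all sense genes tested 11.0% were called higher and 10.1% lower. The same shares among the sense partners of all antisense transcripts tested were not taken. How far antisense tags come from the sense transcript or from neighbouring genes was not tested.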

How the results depend on the processing

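For the 30 min comparison with water the count of called genes was 2038 (664 lower) when only the groups compared were fitted, and 891 were lower with no filter on low counts. With a replicate taken out of both groups it ranged from 1839 to 2508 (1210 to 1483 higher, 629 to 1025 lower), and with a single library taken out from 2259 to 2825 (865 to 1307 lower), the lowest without 30 min replicate 3. With the replicate block, which pairs the libraries of 1 lane, 4005 were called (1838 higher, 2167 lower), among them 3084 of the 3085, and DESeq2 called 3154. Between npr1-1 and Col-0 at 30 min 17 genes were called with no filter (7 higher, 10 lower), and 5 higher and 2 lower with only the groups compared; leaving out a replicate gave 0 to 3 (0 to 1 higher, 0 to 2 lower), with 0 without replicate 1, where 494 genes had an unadjusted p under 0.05. The block was not fitted there, because no lane held both genotypes. The interaction count was 0 under each alternative run. From 15 to 30 min the replicate block gave 1714 (756 lower), total tag scaling 417 higher, and only the groups compared 623 (386 higher, 237 lower); without a replicate it was 583 to 770 (362 to 486 higher, 221 to 284 lower). Fewer samples or genes enter several of these fits; the cause of the other shifts was not tested. Of 225 named or listed genes called at 30 min, 176 were called under every alternative that tested them, and no named or listed gene turned its direction past the threshold. Of 896 counts over lists, 98 moved by more than 1.5 times: falls among nuclear photosynthesis genes (1 as reported) ranged from 0 to 6 and among aquaporins (1 as reported) up to 5. The share of genes called higher with a W box was 46.7% to 50.0% over the alternatives. Of the genes called in npr1-1 at 30 min, 85.0% to 86.7% of those higher and 59.8% to 64.4% of those lower were also called in Col-0 over the scaling, filter, block and DESeq2 alternatives. Depth limits low genes: a group with no tag allows up to 0.597 TPM at 30 min.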
